A study of Rattus norvegicus with 12 samples.

Results

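Chaperones and stress response genes were followed as a set of 35 rat genes, chosen by name with earlier results of these data known. They were chaperones and co-chaperones of the cytosol, mitochondria and endoplasmic reticulum (ER), ER disulfide isomerases, and factors of the unfolded protein response. Every probe set (the group of probes that reports 1 transcript) whose annotation named 1 of these genes alone was taken, older aliases included. This found 47 probe sets for 32 genes among the 31099 probe sets of the array, and 42 of them, for 31 genes, were bright enough to be tested. Hspa1b, Hspa8 and Hsp90aa1 were reported only by probe sets shared with other genes and have no value here. Trib3, a pseudokinase induced by ER stress, had 3 probe sets, all below the limit for testing, with signals from 4.0 to 87.4 over the 12 arrays.

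Gene expression was measured in renal cortex of male rat littermates on 12 arrays, 3 in each of 4 groups. Diabetic rats received streptozocin, a toxin of insulin-producing beta cells, intravenously at 65 mg/kg, and insulin palmitate pellets 3 days later. Nondiabetic rats received vehicle and palmitate vehicle pellets. Rats were injected when 4 weeks old in 1 pair of groups and when 14 weeks old in the other, and cortex was taken 6 weeks later, at 10 and 20 weeks of age. Diabetic rats had a glucose of 350 to 450 mg/dl per the sample labels, whereas the series' design text prints 350 as both limits. No group received streptozocin without becoming diabetic, and insulin pellets went with diabetes, so effects of toxin, pellet and diabetes cannot be told apart. The label of 10-week diabetic replicate 1 names a vehicle pellet. Nothing in the labels says which animal an array came from, so the p-values here rest on the spread among samples, which may be technical. In whole cortex, fewer cells of a type and less RNA per cell cannot be told apart.

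Correlations between arrays lay between 0.941 and 0.976. All 8 listed markers of the proximal tubule, the main cell type of cortex, were above the limit for testing, and their summed signal lay between 124796 and 150940 over the 12 arrays. RNA integrity was read from the Gapdh control probe sets, whose 3'/5' ratio is higher for degraded RNA. It was 1.41 to 1.495 on the 10-week arrays. The ratio was 2.09, 1.42 and 1.54 on the 20-week nondiabetic arrays and 1.60, 1.68 and 1.75 on the 20-week diabetic arrays. The 3'/5' ratio of the beta-actin control probe sets was higher, from 6.30 to 8.57 on the 10-week arrays. It was 11.2, 6.87 and 8.27 on the 20-week nondiabetic arrays and 7.46, 11.4 and 10.0 on the 20-week diabetic arrays. Only the Gapdh ratio was used as a covariate.

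Heat shock proteins bind unfolded or partly folded proteins and prevent their aggregation. HSP70 proteins work in cycles of ATP hydrolysis that are started by J-domain co-chaperones (the DNAJ proteins) and ended by nucleotide exchange factors such as the HSP110 proteins. Transcription of the stress-inducible cytosolic members is driven by heat shock factor 1, which binds heat shock elements. In the ER, the HSP70 protein BiP (Hspa5) holds the stress sensors IRE1, PERK and ATF6 inactive. Unfolded proteins release them, after which spliced XBP1 and cleaved ATF6 raise ER chaperones through ER stress elements, and PERK raises ATF4 and CHOP (Ddit3).

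These elements were looked for by their letters in the RefSeq promoters of the members, from 250 bases before to 50 bases after the start of the gene, on both strands (build GRCr8). Promoters were matched for 29 of the 35 genes. The ER stress element was searched as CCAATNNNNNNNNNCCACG and was present in 22 of 33469 promoters (0.0657%). Among the members it was found in Hspa5, Xbp1, Hsp90b1, Calr, Canx and Dnajc3, 6 genes in all. Sdf2l1, Dnajb9, Dnajb11, Hyou1, P4hb and Pdia4 have promoters in the table without these letters. The stretches are shown because the element was rare among all promoters and 6 members held it, with the element in capitals, 15 bases on each side, and each read along its gene. They lie at chr3:38452958-38453006 (plus strand) in Hspa5, chr14:84604543-84604591 (plus) in Xbp1, chr7:23012436-23012484 (minus) in Hsp90b1, chr10:35158054-35158102 (minus) in Canx, chr15:102432519-102432567 (plus) in Dnajc3 and chr19:40213120-40213168 (plus) in Calr. In Calr the element is on the opposite strand of the gene, so the capitals show it reversed. Hsp90b1 held a further element, also reversed, from -72 to -54 bases of its start.
Hspa5: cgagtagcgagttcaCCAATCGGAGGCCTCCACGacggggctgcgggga
Xbp1: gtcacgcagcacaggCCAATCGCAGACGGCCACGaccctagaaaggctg
Hsp90b1: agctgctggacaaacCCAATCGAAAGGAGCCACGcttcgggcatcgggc
Canx: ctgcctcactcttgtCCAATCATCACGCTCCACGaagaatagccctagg
Dnajc3: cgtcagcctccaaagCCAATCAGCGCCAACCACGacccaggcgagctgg
Calr: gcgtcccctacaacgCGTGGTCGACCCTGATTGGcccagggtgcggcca

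The heat shock element was searched as GAANNTTCNNGAA or TTCNNGAANNTTC and was present in 267 of the 33469 promoters (0.798%). It was found in 5 members, Hsph1, Dnaja1, Hspd1, Hspe1 and Hspa8. In Hsph1 it lies from -36 to -24 bases of the start (chr12:10427317-10427359, plus strand), and in Dnaja1 from 10 to 22 bases after the start (chr5:60638405-60638433, plus strand, 8 bases on each side). Hspd1 and Hspe1, the mitochondrial chaperonin pair, are transcribed away from each other, and the elements found for both are the same stretch of chromosome 9, shown along Hspe1 (chr9:64084247-64084289, plus strand). These 3 stretches are shown because Hsph1 and Dnaja1 are members that fell in diabetic rats, and the chaperonin pair holds the same element and gave no call.
Hsph1: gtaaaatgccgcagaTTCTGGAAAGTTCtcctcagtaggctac
Dnaja1: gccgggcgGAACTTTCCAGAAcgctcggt
Hspe1: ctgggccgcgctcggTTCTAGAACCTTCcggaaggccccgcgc
The ATF6/XBP1 element TGACGTGG was found in Bag3 and Hyou1 and in 0.595% of all promoters. The CHOP/ATF4 element TGATGNAA was found in Herpud1, Hspa9 and Trib3 and in 3.98% of all promoters. No 2 different motifs overlapped in a member's promoter. A match describes the letters of the window and is no evidence of binding.

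Diabetes was compared with no diabetes within each age and as the mean of both ages, which shares its arrays with the comparisons of single ages. At 20 weeks 4 of the 31 tested members fell in diabetic rats, and none rose. They were the HSP110 protein Hsph1, the co-chaperone Dnaja1, the HSPB1-associated protein Hspbap1 and the ER disulfide isomerase Pdia4. Over both ages 7 members fell and none rose, and the ER chaperones Hspa5, Sdf2l1 and Dnajb11 joined those 4. At 10 weeks no member passed the test. A member was called by its brightest probe set at an adjusted p under 0.05 (limma, two-sided, Benjamini-Hochberg adjustment over all 18625 probe sets tested).

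The shares over all 10581 genes, read the same way, give the background for these counts. The members were chosen with earlier results of these data known, so the counts are a description and no test of the set. The members had a smaller median SE in the comparisons within an age (0.10 against 0.15 over all genes) and a higher median signal (2814 against 596), so a difference of a given size was easier to call for them. At 10 weeks 0.425% of all genes were called in either direction, at 20 weeks 3.49% (2.01% lower and 1.47% higher), and over both ages 5.58% (2.81% lower and 2.77% higher). In the 10-week comparison 8 members had an unadjusted p under 0.05, against 1308 of all genes. The median log2 difference of the members was 0.01 at 10 weeks, -0.00 at 20 weeks and -0.05 over both ages. Over all genes it was 0.00, -0.01 and -0.00. The middle of the list thus lay close to that of all genes, with the called members on the lower side.

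**Figure D1:**
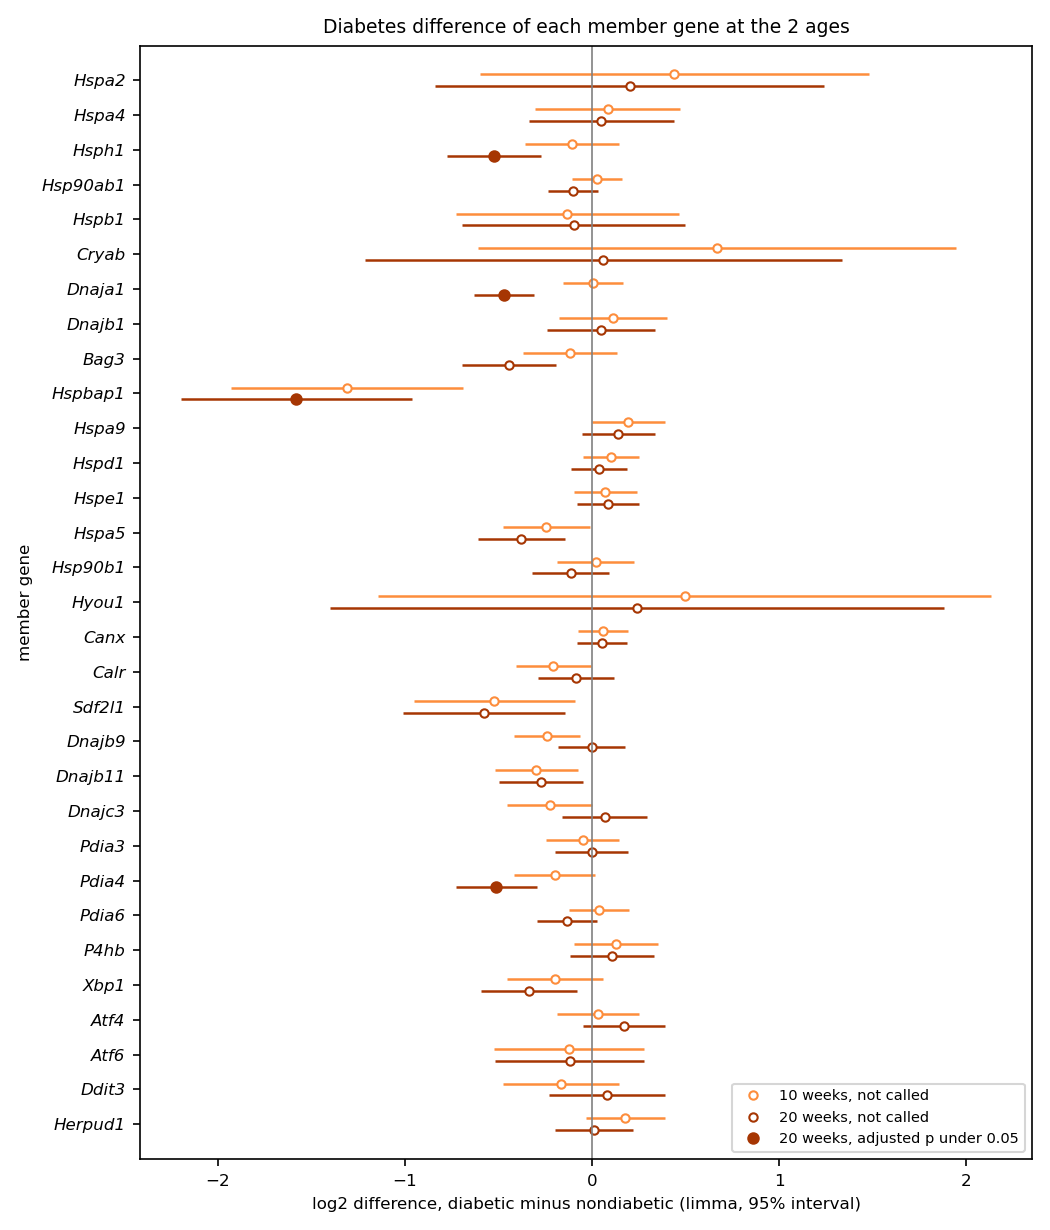
Log2 difference, diabetic minus nondiabetic, of the 31 tested members (rows) at 10 weeks (light) and 20 weeks (dark), with the 95% interval of the limma fit. Filled points are the 4 calls at 20 weeks (Hsph1, Dnaja1, Hspbap1 and Pdia4), all to the left of 0, and the widest intervals belong to Hyou1, Cryab and Hspa2.

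Separation of the arrays was read from the same values as the calls, so it is no second line of support. The members' smaller SE also makes separation easier for a difference of a given size. At 20 weeks every diabetic array lay below every nondiabetic array for 9 of the 31 members (Hsph1, Dnaja1, Bag3, Hspbap1, Hspa5, Sdf2l1, Dnajb11, Pdia4 and Xbp1), and above for none. This pattern held for 11.9% (below) and 10.7% (above) of all genes. In the 10-week rats 5 of the 31 members lay below (Hspbap1, Sdf2l1, Dnajb9, Dnajb11 and Dnajc3) and 2 above (Hspa9 and Hspd1), where all genes gave 8.96% and 9.04%. Hspbap1, Sdf2l1 and Dnajb11 were below at both ages, and no member was above at both ages, where all genes gave 2.91% and 2.82%.

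**Figure D2:**
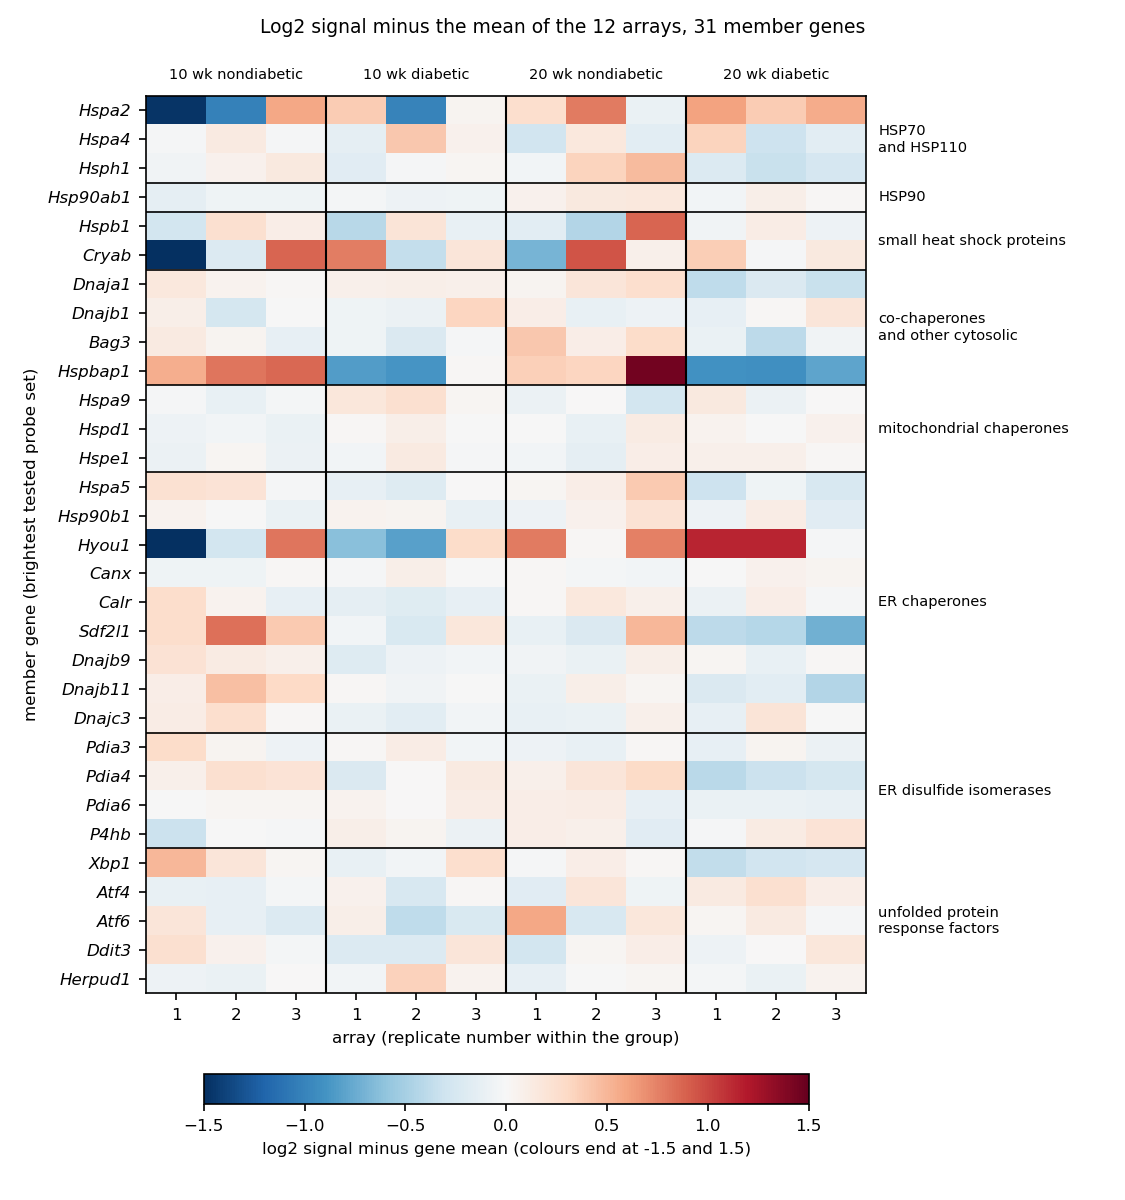
Log2 signal of each tested member (rows, by role) on each of the 12 arrays (columns, by group) minus that gene's mean over the arrays; blue is lower and red higher, and colours end at -1.5 and 1.5. Hspbap1 is blue on 5 of the 6 diabetic arrays and near its mean on the other, and Cryab, Hspa2 and Hyou1 are darkest on 10-week nondiabetic replicate 1.

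Among the cytosolic co-chaperones and their partners, 2 of 4 fell at 20 weeks and over both ages, and Hspbap1 had the largest difference of the called members. Its product binds the small heat shock protein HSPB1. The signal of Hspbap1 was 987, 1176 and 1227 on the 10-week nondiabetic arrays and 377, 364 and 682 on the 10-week diabetic arrays. On the 20-week arrays it was 864, 841 and 1847 without diabetes and 360, 358 and 391 with diabetes. All 6 diabetic arrays lay below all 6 nondiabetic arrays. On the log2 scale the difference was -1.31 ± 0.29 (SE) at 10 weeks (adjusted p = 0.0925), -1.58 ± 0.29 at 20 weeks (adjusted p = 0.0135) and -1.44 ± 0.20 over both ages (adjusted p = 0.00171), a signal that fell by 63.2%. The call over both ages held with each of the 12 arrays left out in turn. At 20 weeks it was lost only without 20-week diabetic replicate 2 (adjusted p = 0.0501), and at 10 weeks Hspbap1 was called without 10-week diabetic replicate 3 or without 20-week nondiabetic replicate 3.

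Dnaja1, a J-domain protein that hands clients to HSP70, fell at 20 weeks. Its signal was 6900, 7552 and 7924 on the nondiabetic and 5139, 5728 and 5289 on the diabetic arrays of that age. The groups did not overlap. At 10 weeks it was 7464, 6906 and 6749 without diabetes, and the diabetic arrays lay within that range, at 7058, 7125 and 7034. The log2 difference was 0.01 ± 0.07 at 10 weeks and -0.47 ± 0.07 at 20 weeks (adjusted p = 0.00619), where the signal fell by 27.8%. A second Dnaja1 probe set gave -0.12 ± 0.09 and -0.51 ± 0.09 (adjusted p = 0.0121). The 20-week call held with each array left out in turn. Over both ages the brightest probe set fell by 0.23 on the log2 scale (± 0.05, adjusted p = 0.0271), and this call was kept only without 10-week nondiabetic replicate 3, 20-week nondiabetic replicate 1 or 20-week diabetic replicate 2 (adjusted p up to 0.0676 without another array).

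Bag3, a nucleotide exchange factor for HSP70 that directs clients to autophagy, and Dnajb1, the main stress-inducible J-domain partner of HSP70, were not called. Bag3 gave 1801, 1458 and 1646 in 20-week nondiabetic rats and 1261, 1037 and 1312 in diabetic rats of that age. These groups did not overlap, and the log2 difference was -0.44 (95% interval -0.70 to -0.19, adjusted p = 0.064). In 2 of 22 alternatives of the processing Bag3 was called at 20 weeks. The log2 difference of Dnajb1 was 0.11 (-0.18 to 0.40) at 10 weeks and 0.05 (-0.24 to 0.34) at 20 weeks. Its dimmer probe set gave -0.44 ± 0.18 at 20 weeks (adjusted p = 0.228), so the probe sets of Dnajb1 disagreed.

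**Figure D3:**
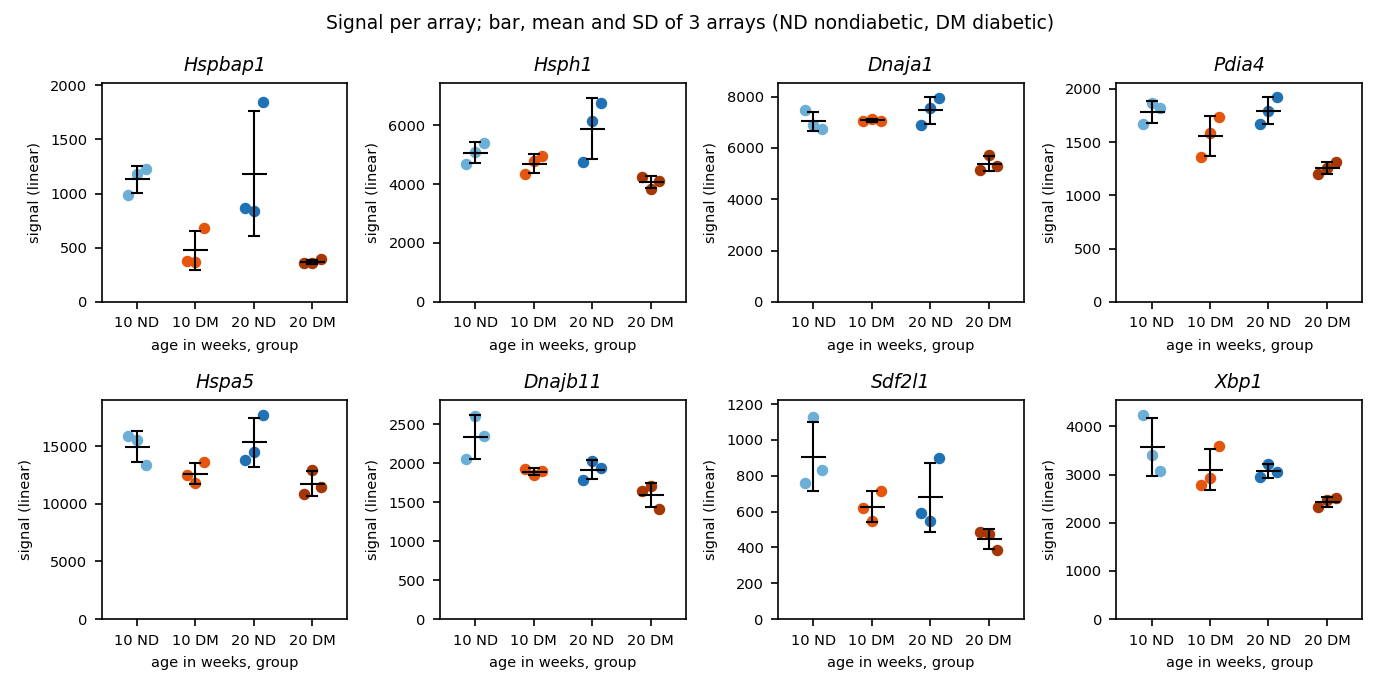
Linear signal of 8 members on each array (points), with mean and SD of the 3 arrays of a group (bars), for nondiabetic (ND, blue) and diabetic (DM, orange) rats at 10 and 20 weeks. The 8 members are among the 9 whose diabetic arrays all lay below the nondiabetic arrays at 20 weeks, so each panel shows that gap. At 10 weeks Hspbap1, Sdf2l1 and Dnajb11 show such a gap, and Hsph1, Dnaja1, Pdia4, Hspa5 and Xbp1 do not.

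Of the HSP70 and HSP110 class, 3 of 5 listed genes had a tested probe set and Hsph1 was called. Hsph1, the HSP110 nucleotide exchange factor, gave 4741, 6155 and 6766 on the 20-week nondiabetic arrays and 4236, 3844 and 4098 on the diabetic arrays. The groups were separate, with 20-week nondiabetic replicate 1 nearest to the diabetic arrays. At 10 weeks the values were 4685, 5095 and 5404 without and 4335, 4801 and 4955 with diabetes, which overlapped. Diabetes differences were -0.11 ± 0.12 at 10 weeks and -0.52 ± 0.12 at 20 weeks (adjusted p = 0.0329). A second Hsph1 probe set gave 0.00 ± 0.16 and -0.76 ± 0.16 (adjusted p = 0.0275). The 20-week call of the brightest probe set was lost without 10-week nondiabetic replicate 2, 20-week nondiabetic replicates 2 or 3 or any 1 of the 20-week diabetic arrays (adjusted p from 0.0502 to 0.116). Over both ages it fell by 0.31 on the log2 scale (± 0.08, adjusted p = 0.0484), a call kept only without 20-week nondiabetic replicate 1 and otherwise lost with 1 array left out (adjusted p from 0.0603 to 0.112).

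Hspa4, a further HSP110 protein, gave signals from 788 to 1303 over the arrays and a log2 difference of 0.07 (95% interval -0.21 to 0.34) over both ages. Hspa2, an HSP70 protein best known from testis, was dim, from 48.7 to 233, and its difference of 0.32 had an interval from -0.41 to 1.06. A dimmer Hspa2 probe set gave 0.25 ± 0.43. A fall as large as that of Hsph1 over both ages, -0.31, lay outside the interval of Hspa4 and inside that of Hspa2.

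Hsp90ab1, the constitutive cytosolic HSP90, varied little within groups. Its signal was 10963, 11501 and 11442 in 10-week nondiabetic rats and 11793, 11344 and 11425 in 10-week diabetic rats. In 20-week rats it was 12538, 13327 and 13331 without and 11641, 12715 and 12169 with diabetes. The diabetic and nondiabetic arrays overlapped at both ages. Diabetes differences were 0.03 ± 0.06 and -0.10 ± 0.06 on the log2 scale (adjusted p = 0.911 and 0.449). A dimmer Hsp90ab1 probe set gave -0.35 ± 0.24 and 0.33 ± 0.24, opposite in sign at both ages.

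Neither small heat shock protein passed the test. Hspb1, the binding partner of Hspbap1, gave signals from 467 to 1163 and a log2 difference of -0.13 ± 0.28 at 10 weeks and -0.10 ± 0.28 at 20 weeks. Cryab, alpha-B-crystallin, ranged 8.07-fold over the arrays. It was 507, 1856 and 3905 in 10-week nondiabetic rats, 3651, 1670 and 2418 in 10-week diabetic rats, 1312, 4092 and 2256 in 20-week nondiabetic rats and 2756, 2116 and 2357 in 20-week diabetic rats. The lowest and the highest value both came from nondiabetic rats, and the 95% interval of its mean difference ran from -0.54 to 1.27.

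All 3 mitochondrial chaperones had values above 0 at both ages, and none was called. Hspa9 (mortalin), the HSP70 of the mitochondrial matrix and its import motor, gave 7516, 7008 and 7446 in 10-week nondiabetic rats and 8549, 8924 and 7712 in 10-week diabetic rats, without overlap. At 20 weeks the groups overlapped, at 7158, 7584 and 6282 without and 8398, 7152 and 7623 with diabetes. The log2 difference over both ages was 0.17 ± 0.06 (adjusted p = 0.177). Its 3 dimmer probe sets gave 0.34 ± 0.15, 0.18 ± 0.29 and -0.14 ± 0.36. Hspd1 and Hspe1, which form the chaperonin chamber and its lid, differed by 0.07 (95% interval -0.03 to 0.18) and 0.08 (-0.04 to 0.20), so a rise of more than about 0.20 lay outside both intervals.

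In the ER chaperone class 3 of 9 members fell over both ages (Hspa5, Sdf2l1 and Dnajb11). Sdf2l1 and Dnajb11 are partners of BiP, the product of Hspa5. Dnajb9 and Dnajc3, DNAJ proteins of the same class, were not called. None of the 9 was called at a single age, though Hspa5 was called at 20 weeks with quantile normalization in place of the authors' scaling. All 3 calls were lost without both 10-week diabetic replicate 1 and 20-week nondiabetic replicate 1 (adjusted p = 0.0667 for Hspa5, 0.1001 for Sdf2l1 and 0.0812 for Dnajb11), and also with no filter on dim probe sets or no intensity trend (adjusted p from 0.0581 to 0.103). The signal of Hspa5 was 15892, 15554 and 13401 in 10-week nondiabetic rats and 12465, 11798 and 13589 in 10-week diabetic rats. At 20 weeks it was 13774, 14491 and 17731 without and 10894, 12925 and 11470 with diabetes. The groups were separate at 20 weeks, and at 10 weeks diabetic replicate 3 lay above nondiabetic replicate 3. The log2 difference was -0.24 ± 0.11 at 10 weeks, -0.38 ± 0.11 at 20 weeks (adjusted p = 0.0858) and -0.31 ± 0.08 over both ages (adjusted p = 0.0383). That call was kept without 10-week nondiabetic replicate 3, 10-week diabetic replicate 3, 20-week nondiabetic replicate 1 or 20-week diabetic replicate 2, and lost without any other array (adjusted p from 0.0524 to 0.0904).

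Dnajb11 (ERdj3), a soluble J-domain protein of the ER lumen, gave 2050, 2609 and 2343 against 1928, 1842 and 1901 at 10 weeks. At 20 weeks it gave 1783, 2027 and 1943 against 1644, 1712 and 1413 with diabetes. Diabetic arrays were lower than all nondiabetic arrays of their age, and the 20-week nondiabetic arrays were lower than the 10-week ones. The log2 difference over both ages was -0.29 ± 0.07 (adjusted p = 0.0443), and it was called only without 10-week or 20-week nondiabetic replicate 1 when 1 array was left out (adjusted p otherwise from 0.0509 to 0.102).

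Sdf2l1, which keeps ERdj3 clients from aggregating, gave 762, 1126 and 834 against 620, 545 and 715 with diabetes at 10 weeks. The 20-week values were 590, 547 and 900 against 483, 472 and 385. No diabetic array reached a nondiabetic array of its age. Differences were -0.52 ± 0.20 and -0.58 ± 0.20 on the log2 scale at the single ages and -0.55 ± 0.14 over both (adjusted p = 0.0456). This call was kept only without 20-week nondiabetic replicate 2 (adjusted p from 0.0505 to 0.111 without another array).

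The other 6 ER chaperones were not called. Dnajb9 (ERdj4), which restrains IRE1, gave 2376, 2227 and 2161 against 1795, 1941 and 1992 with diabetes at 10 weeks, separate groups with a log2 difference of -0.24 ± 0.08 (adjusted p = 0.292). At 20 weeks its difference was -0.00 ± 0.08. Dnajc3 (p58IPK), an inhibitor of PERK, was likewise separate at 10 weeks (-0.23 ± 0.10, adjusted p = 0.46) and at 0.07 ± 0.10 at 20 weeks. Hsp90b1 (GRP94) differed by -0.05 (95% interval -0.19 to 0.10) over both ages. The lectin chaperones calnexin (Canx) and calreticulin (Calr) differed by 0.06 (-0.04 to 0.15) and -0.15 (-0.29 to -0.00). Canx had the narrowest relative range of the tested members, with signals from 7869 to 8773 over the arrays, and its next probe set gave 0.01 ± 0.07. The dimmest Canx probe set gave -0.17 ± 0.17 over both ages and -0.33 ± 0.24 at 20 weeks. Hyou1 (GRP170) was dim, from 17.8 to 356, and its interval of -0.79 to 1.53 bounds little.

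Of the 6 members with an ER stress element in the promoter, Hspa5 was called over both ages. The differences of the 6 ran from -0.31 to 0.06. Of the 4 tested members with a heat shock element, Hsph1 and Dnaja1 were called at 20 weeks and over both ages. The differences of the 4 at 20 weeks ran from -0.52 to 0.09. Of all genes, 3.49% were called at 20 weeks and 5.58% over both ages. Hspd1 and Hspe1 hold the same stretch, and a link between motif and fall was not tested.

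Among the 4 ER disulfide isomerases, which form and rearrange disulfide bonds, only Pdia4 (ERp72) was called. Its signal was 1669, 1864 and 1823 in 10-week nondiabetic rats and 1361, 1587 and 1736 in 10-week diabetic rats. In the older rats it was 1668, 1793 and 1922 without and 1198, 1260 and 1318 with diabetes. The groups overlapped at 10 weeks through diabetic replicate 3 and were separate at 20 weeks. The log2 difference was -0.20 ± 0.10 at 10 weeks, -0.51 ± 0.10 at 20 weeks (adjusted p = 0.0198, fell by 29.8%) and -0.35 ± 0.07 over both ages (adjusted p = 0.0141). The call over both ages held with each array left out. The 20-week call was lost without 20-week nondiabetic replicates 2 or 3 or any 1 of the 20-week diabetic arrays (adjusted p from 0.0505 to 0.0649).

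Pdia3 (ERp57), which works with calnexin and calreticulin on glycoproteins, differed by -0.03 (95% interval -0.16 to 0.11) over both ages. Pdia6 differed by -0.05 (-0.16 to 0.07), and P4hb, protein disulfide isomerase itself, by 0.12 (-0.04 to 0.28). A fall as large as that of Pdia4, -0.35, lay outside all 3 intervals. A dimmer Pdia3 probe set gave -0.20 (-0.47 to 0.08) over both ages, an interval that holds such a fall. At 20 weeks it gave -0.34 ± 0.18 (limma, adjusted p = 0.368), with every diabetic array below every nondiabetic array.

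None of the 5 tested unfolded protein response factors was called. Xbp1, the factor spliced by IRE1, was 4232, 3398 and 3079 against 2788, 2928 and 3586 with diabetes at 10 weeks. At 20 weeks it was 2958, 3229 and 3047 against 2323, 2464 and 2522. The groups were separate at 20 weeks and overlapped at 10 weeks. The log2 difference was -0.20 ± 0.12 at 10 weeks, -0.34 ± 0.12 at 20 weeks (adjusted p = 0.169) and -0.27 ± 0.08 over both ages (adjusted p = 0.0998). These values are of the total transcript, since nothing in the files separates spliced from unspliced Xbp1.

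Atf4, the factor translated when PERK is active, gave 2930 to 3599 in the 10-week rats and 3079, 3901 and 3314 against 3778, 4073 and 3700 with diabetes at 20 weeks. These overlapped, and its difference over both ages was 0.10 (95% interval -0.05 to 0.26). Ddit3 (CHOP), the ATF4 target tied to cell death in prolonged ER stress, ranged from 527 to 753 and differed by -0.04 (-0.26 to 0.18). Herpud1, which serves ER-associated degradation, differed by 0.09 (-0.05 to 0.24), and Atf6 by -0.12 (-0.40 to 0.16). For Ddit3 the 20-week interval, -0.23 to 0.39, leaves room for a moderate change in either direction.

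Whether the diabetes difference depended on age was tested directly. No member was called in this interaction (limma, 0% of all genes called), and 3 had an unadjusted p under 0.05, against 738 of the 10581 genes. These were Dnaja1 (log2 difference at 10 weeks minus that at 20 weeks 0.48 ± 0.10, adjusted p = 0.4), Hsph1 (0.41, adjusted p = 0.563) and Pdia4 (0.31, adjusted p = 0.618). All 3 were lower with diabetes at 20 weeks. At 10 weeks Hsph1 and Pdia4 were lower by less, and Dnaja1 was at 0.01. A difference between ages was not shown for any of the 3. Hspbap1 gave 0.27 with a 95% interval from -0.60 to 1.14.

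Age itself, 20 against 10 weeks in nondiabetic rats, gave no call among the members (limma, 0% of all genes), and 3 members had an unadjusted p under 0.05, against 895 of all genes. Hsp90ab1 was higher on every 20-week than on every 10-week nondiabetic array (0.21 ± 0.06, adjusted p = 0.49). Dnajb11 was lower on every one (-0.28 ± 0.10, adjusted p = 0.532). Such separation upward was seen for 7.15% of all genes and downward for 5.67%.

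Genes that work beside the members were taken as 5 further lists, 110 genes of which 106 were tested. Over both ages 6 fell and 2 rose, at 20 weeks 5 fell and none rose, and at 10 weeks none was called, which stand against the same 5.58%, 3.49% and 0.425% of all genes. Their median log2 difference over both ages was 0.00. Of 26 tested genes of ER folding, translocation and secretion, Manf was the 1 called over both ages. Manf, a secreted ER stress protein that binds BiP, gave 4108, 3852 and 3106 against 2362, 2204 and 2916 with diabetes at 10 weeks and 2921, 3208 and 3580 against 1613, 1912 and 2046 at 20 weeks. Its diabetic arrays were lower than every nondiabetic array of their age. The log2 difference was -0.57 ± 0.14 at 10 weeks, -0.80 ± 0.14 at 20 weeks (adjusted p = 0.00924) and -0.68 ± 0.10 over both ages (adjusted p = 0.00178), and both calls held with each array left out. Creld2, a further secreted ER stress protein whose promoter holds the ER stress element, fell by 0.66 on the log2 scale at 20 weeks (± 0.15, adjusted p = 0.0364). Without 10-week nondiabetic replicate 2, 10-week diabetic replicate 1, 20-week nondiabetic replicates 2 or 3 or any 1 of the 20-week diabetic arrays its adjusted p was 0.0506 to 0.137. Among the other called genes of these lists, the promoters of Dnajb5, Fkbp4, Phgdh, Psat1 and Trap1 held none of the 4 motifs. Manf, Hspa12a and Clpx had no promoter matched. None of the 14 tested genes of ER-associated degradation was called in any comparison, and 1 had an unadjusted p under 0.05 over both ages.

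**Figure D4:**
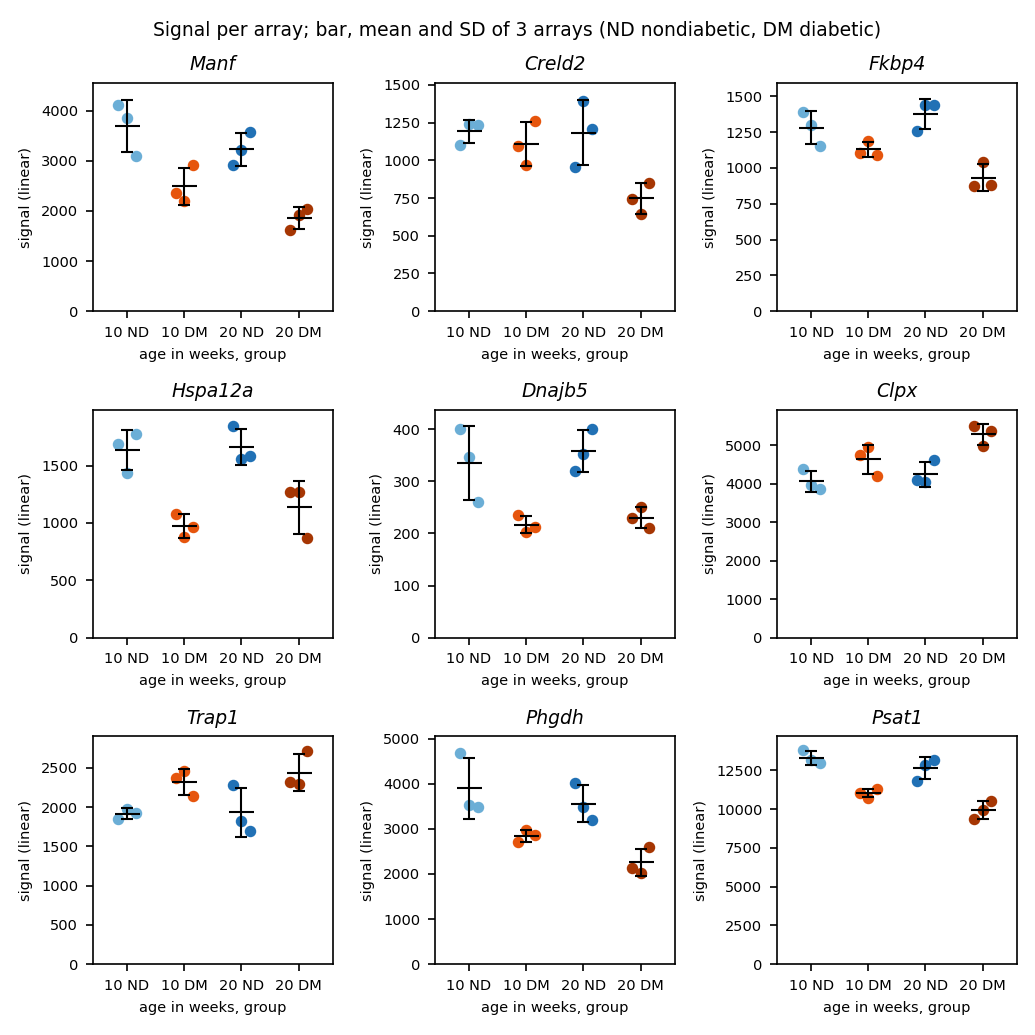
Linear signal of the 9 called genes of the further lists on each array (points), with mean and SD of the 3 arrays of a group (bars), for nondiabetic (ND, blue) and diabetic (DM, orange) rats at 10 and 20 weeks. Manf, Hspa12a, Dnajb5, Phgdh and Psat1 have all diabetic points below the nondiabetic points of their age, and Trap1 has them above.

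Among 36 other cytosolic chaperones and co-chaperones 3 fell over both ages. Hspa12a, a distant HSP70 relative, fell by 0.66 on the log2 scale (± 0.11, adjusted p = 0.00384), the J-domain protein Dnajb5 by 0.62 (± 0.12, adjusted p = 0.0134) and Fkbp4, an HSP90 co-chaperone of steroid receptors, by 0.37 (± 0.07, adjusted p = 0.0136). All 3 calls held with each array left out. Fkbp4 was also called at 20 weeks (-0.57 ± 0.10, adjusted p = 0.0146), though not without 20-week nondiabetic replicate 2 or 20-week diabetic replicates 1 or 3 (adjusted p from 0.0521 to 0.0628). Hsf1 itself differed by 0.07 ± 0.11.

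Of 8 other mitochondrial chaperones and proteases, Clpx, which unfolds substrates of the ClpP protease, and Trap1, the mitochondrial HSP90, rose over both ages. Clpx gave 4370, 3976 and 3851 against 4752, 4944 and 4201 with diabetes at 10 weeks and 4087, 4031 and 4604 against 5497, 4975 and 5379 at 20 weeks, separate only at 20 weeks. Trap1 gave 1846, 1978 and 1927 against 2369, 2466 and 2143 at 10 weeks and 2285, 1829 and 1691 against 2314, 2294 and 2713 at 20 weeks, separate at both. The log2 differences were 0.25 ± 0.06 (adjusted p = 0.037) and 0.31 ± 0.08 (adjusted p = 0.0459). Clpx was called only without 10-week nondiabetic replicate 1, 10-week diabetic replicate 3, 20-week nondiabetic replicate 3 or 20-week diabetic replicate 2, and Trap1 only without 20-week nondiabetic replicate 1. The adjusted p was otherwise 0.0717 to 0.0885 for Clpx and 0.0543 to 0.110 for Trap1.

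Of 22 tested stress sensors and genes of the PERK and ATF4 branch, 2 fell over both ages, Phgdh and Psat1. They encode the first 2 enzymes of serine synthesis and are known targets of ATF4. Phgdh gave -0.55 ± 0.09 (adjusted p = 0.00458) and Psat1 -0.31 ± 0.05 (adjusted p = 0.00374), and both calls held with each array left out. At 20 weeks they gave -0.66 ± 0.13 and -0.34 ± 0.07 (adjusted p = 0.0198 and 0.0209), and both calls were lost without 20-week nondiabetic replicate 2 or 20-week diabetic replicates 1 or 2. Phgdh was also lost without 20-week nondiabetic replicate 1 and Psat1 without replicate 3 of that group (adjusted p up to 0.0821 and 0.0757). Other targets of this branch were not called, among them Asns, asparagine synthetase (0.10 ± 0.15 over both ages), and Chac1, which degrades glutathione (0.04 ± 0.20).

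Marker lists of other cell types were summed over each array. At 20 weeks the sums of the podocyte list (5 of 6 genes tested, none called) were 5526 to 6000 without and 4512 to 5030 with diabetes, and those of the endothelium list (5 of 6 tested, Vwf called lower) 8564 to 9702 and 7241 to 7917. The inner medulla list (4 of 6 tested, Slc5a3 and Aqp4 called higher, Akr1b1 and Slc14a2 with differences below 0) gave 1874 to 2580 and 3315 to 3894. The fat list (3 of 5 tested, none called, Lep under the limit for testing on every array) gave 599 to 792 and 1012 to 1840. These sums did not overlap between the groups, while those of the proximal tubule did (124796 to 150940 and 131954 to 137354, none of 8 called). At 10 weeks the podocyte sums (5970 to 6705 and 4681 to 6121) and the endothelium sums (8257 to 9679 and 7648 to 8623) overlapped, as did the collecting duct and leukocyte sums at both ages. The inner medulla sums (1720 to 2222 and 2011 to 2884) and the fat sums (257 to 921 and 692 to 1546) also overlapped at 10 weeks. Over both ages, 2 of the 5 podocyte markers (median log2 difference -0.37) and 1 endothelium marker were called lower. Of the 4 tested inner medulla markers 2 were called higher, and the other 2 had differences below 0. Of the collecting duct list 2 of 6 were called higher and 2 lower, and of the leukocyte list 1 of 5 was called higher (median 0.33). The part of these cell types in the members' differences was not tested. With the Gapdh 3'/5' ratio as a covariate, Hsph1, Dnaja1, Hspbap1 and Pdia4 were still called at 20 weeks. Over both ages 6 of the 7 members were called with it, and Sdf2l1 was not (adjusted p = 0.0593).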

How the data were processed

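Biotin-labelled cRNA of 12 samples was hybridised to 1-colour arrays, per the labels' protocols. The deposited values are linear signal intensities made with GCOS, per the submitters' processing notes, whose version is not given in the sources used here. The 2% trimmed mean of every array was 500.2, so a common shift of most transcripts could not be seen. Signals below 1 were set to 1, log2 was taken, 57 control probe sets and the dimmest 40% (geometric mean under 70.9) were left out, and 18625 were tested. Names came from the array annotation, updated through the RefSeq gene table. A model of 4 group means was fitted with limma 3.58.1 (R 4.3.3, eBayes with an intensity trend), tested on simulated data, and p-values were adjusted over all probe sets. The brightest tested probe set stood for a gene. Every tested probe set of the members is reported, and dimmer probe sets of Hyou1 and Atf6 were under the limit for testing. Of the further lists the called genes are named, at most 4 per comparison. Asns, Chac1 and Hsf1 were named after their values were seen. The members and lists were chosen with earlier results of these data known. The number of arrays limits the precision. Alternatives were scaling, filter, offset, trend, block, covariate and arrays left out.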

Additional observations from a re-analysis of the deposited data

Results flagged for a closer look

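For 2 members every diabetic array lay on 1 side of the nondiabetic mean log2 signal at 10 weeks and on the other side at 20 weeks. Dnaja1 gave a log2 difference of 0.00802 at 10 weeks and -0.47 at 20 weeks, and the test of the difference between ages gave 0.48 ± 0.10 (adjusted p = 0.4). Hsp90ab1 gave 0.0278 at 10 weeks and -0.10 at 20 weeks, with a difference between ages of 0.13 ± 0.09 (adjusted p = 0.723). The 10-week values of both were within 1 SE of 0, and on the linear scale 10-week diabetic replicate 3 of Dnaja1 (7034) lay below the nondiabetic mean (7040).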

How the results depend on the processing

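No called member changed direction under any alternative tried. At 20 weeks the count of 4 became 2 with no intensity trend and 1 to 4 with 1 array left out in turn, and over both ages the count of 7 became 2 (Hspbap1 and Pdia4) with no filter on dim probe sets, 2 (the same genes) with no intensity trend, 4 (Hspa5, Sdf2l1 and Dnajb11 lost) without both doubted arrays (10-week diabetic replicate 1, with the vehicle label, and 20-week nondiabetic replicate 1, with the highest Gapdh ratio) and 2 to 6 with 1 array left out. At 10 weeks the count of 0 became 1, Hspbap1, without 1 array in some cases (0 to 1). With quantile normalization the counts were 5 at 20 weeks (Hspa5 gained) and 5 over both ages (Sdf2l1 and Dnajb11 lost). With the dimmest 60% left out the 20-week count was 5 (Bag3 gained). Replicate numbers did not pair the samples: correlations of same-numbered deviations ran from -0.15 to 0.15. With the number as a replicate block the counts were 1, 5 and 4 at 10 weeks, at 20 weeks and over both ages. In that fit Bag3 was gained at 20 weeks, and Hspa5, Sdf2l1 and Dnajb11 were lost over both ages. Interaction and age gave 0 members in every setting. Hspbap1 and Pdia4 over both ages, and Dnaja1 at 20 weeks, were called in every alternative. Dim members (Hspa2, Hyou1 and Trib3) are limited by signal near background.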

Other observations

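Hspa1a, the inducible HSP70 whose near-identical twin Hspa1b has no probe set of its own, gave 487, 488 and 574 in 20-week nondiabetic rats and 621, 584 and 929 in 20-week diabetic rats. The arrays were separate, upward, with a log2 difference of 0.43 ± 0.16 that did not pass the test (adjusted p = 0.199), and signal of its twin on these probes cannot be told apart. At 10 weeks the difference was 0.20 ± 0.16 (adjusted p = 0.709).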
